A study of Mus musculus with 4 samples.

Results

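The loci of 10 genes of the Notch pathway were examined in RUNX1 and H3K27me3 ChIP-seq peak lists from mouse blood progenitors. The genes were the receptors Notch1, Notch2, Notch3 and Notch4, the ligands Dll1, Dll4, Jag1 and Jag2, and the target genes Hes1 and Hey1, which are 10 of the 21938 protein-coding genes in the annotation. A peak belonged to a gene when its summit, the base of highest signal, lay inside the gene body or within 50 kb of either end. RUNX1 summits of both lists were widened by 200 bp on either flank, and those that then overlapped were joined into 1 site. The windows of the 10 genes held 36 of the 24972 RUNX1 sites of the series, and the nearest transcription start was one of the 10 genes for 13 of them.

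The study placed 4 libraries in the series, all from floating hematopoietic progenitors (HPs) made in vitro from mouse ESCs, with the time label d2. Every library, controls included, carried a Tet-on dominant-negative FOS (dnFOS), a peptide that blocks AP-1 and is switched on by Doxycycline (DOX). RUNX1, a transcription factor needed for blood cell formation, was precipitated from 1 library labelled with DOX and from 1 labelled without it. H3K27me3, a histone mark left by Polycomb at silent genes, is the antibody named for the other 2 libraries. There were no replicates, so differences between libraries carry no test, and the depth of the libraries is unknown. The run names inside the RUNX1 lists give the opposite treatment to the labels, so every direction given for the library labelled +DOX or -DOX turns round if the labels were exchanged. The 2 H3K27me3 libraries have titles that contradict their treatment labels, and their protocol text speaks of a RUNX1 antibody. They were therefore assigned to no condition and are called by their titles, untreated and DOX. The lists held 18389 (RUNX1, labelled -DOX), 21831 (RUNX1, labelled +DOX), 6356 (H3K27me3, titled untreated) and 7233 peaks (H3K27me3, titled DOX). The median H3K27me3 peak was 180 bp wide in the list titled untreated and 122 bp in that titled DOX. Peaks show where chromatin was recovered, and no expression was measured, so the cell type was not checked by its transcripts. Of 8 hematopoietic progenitor markers, Runx1, Spi1, Itga2b and Myb had RUNX1 peaks of both lists within 1500 bp of a start, while Kit had no RUNX1 site in its window. Of 6 endothelial markers, Kdr and Sox17 had such RUNX1 peaks. Among all protein-coding genes 40.2% had them. H3K27me3 peaks lay at a start of the endothelial Sox17 and Sox7, but not of Cdh5, Kdr, Tek or Erg, and of 0 of the 8 progenitor markers. Among all protein-coding genes 9.4% had H3K27me3 peaks of both lists at a start. Counts of so few markers do not identify the cell type.

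Notch receptors are membrane proteins that are cut when a Delta or Jagged ligand on a neighbouring cell binds them. The freed intracellular part enters the nucleus and joins the DNA-binding protein RBPJ and a Mastermind coactivator at target genes, among them repressors of the Hes and Hey families. In the embryo, Notch signalling takes part in arterial fate and in the emergence of blood stem cells from endothelium, and RUNX1 is required for the same endothelial-to-hematopoietic transition.

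The sequences under 4 of the 13 sites are given because they stand for the kinds of site found: 1 just upstream of a gene's start in both lists, 2 away from the start in both lists, and 1 seen in a single list. Each is 200 bp of the mm10 plus strand, 5′ to 3′, centred on the site's strongest summit. Capitals mark matches to the consensus motifs searched on both strands.
Jag1 upstream site, chr2:137117024-137117223: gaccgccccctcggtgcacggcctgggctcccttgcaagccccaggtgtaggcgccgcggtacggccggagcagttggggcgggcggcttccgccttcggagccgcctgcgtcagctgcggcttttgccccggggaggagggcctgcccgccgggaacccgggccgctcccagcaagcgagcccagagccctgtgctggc
Notch1 intron site, chr2:26513359-26513558: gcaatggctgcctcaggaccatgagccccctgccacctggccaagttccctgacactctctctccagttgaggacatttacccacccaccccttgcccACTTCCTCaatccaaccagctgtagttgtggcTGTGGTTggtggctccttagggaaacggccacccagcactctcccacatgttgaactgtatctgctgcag
Dll4 downstream site, chr2:119337893-119338092: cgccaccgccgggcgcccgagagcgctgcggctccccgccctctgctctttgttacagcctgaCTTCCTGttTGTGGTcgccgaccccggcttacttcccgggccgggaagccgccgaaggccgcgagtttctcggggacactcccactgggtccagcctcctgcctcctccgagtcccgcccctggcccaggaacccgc
Notch4 upstream site, chr17:34561285-34561484: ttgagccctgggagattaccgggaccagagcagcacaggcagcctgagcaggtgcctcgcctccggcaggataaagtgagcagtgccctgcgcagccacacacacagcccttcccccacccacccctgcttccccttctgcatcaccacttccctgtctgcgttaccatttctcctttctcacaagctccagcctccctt

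The Notch1 intron window held the RUNX consensus TGTGGTT 33 bp from the summit and the PU.1 consensus GAGGAAGT 1 bp from it, read on the minus strand. It was the only 1 of the 13 sites with TGTGGTT. The Dll4 window held TGTGGT beside the ETS consensus CAGGAAG. None of the searched letters were found in the Jag1 and Notch4 windows, which says only that they are not in these 200 bp.

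Among the 36 sites in the windows, 6 held the RUNX consensus TGTGGTT, which is 16.7%, beside 14.2% of all 24972 windows of this length. The shorter form TGTGGT or TGCGGT, which TGTGGTT contains, was in 12 of 36 and in 37.4% of all windows. The ETS consensus, searched as CCGGAAG and with its second base changed to A or its last base changed to A, or both, was in 8 of 36, beside 29.9% of all. The consensus GTGGGAA of RBPJ, the DNA-binding partner of Notch, was in 5 of 36, or 13.9%, beside 4.5% of all. The C/EBP consensus TTGCNNAA was in 4 of 36 beside 6.46%, GAGGAAGT was in 2 beside 4.66%, and the GATA consensus AGATAA was in 2 beside 11.7%. The AP-1 consensus TGACTCA or TGAGTCA was in 0 of 36, which allows a share of up to 8.33%, and in 4.97% of all windows. A consensus match is a description of the letters and not a bound site. By the letters searched, ETS and PU.1 matches can share end bases but not the same GGAA. The 13 sites nearest to one of the genes were rich in G and C, with a median of 75.5% GC and 22 CpG dinucleotides in 200 bp, beside 56.5% and 6 over all sites.

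RUNX1 peaks lay in the window of all 10 genes. At least 1 site was also found for 46 of 47 further genes of the pathway and for 78% of all protein-coding genes. The median was 3 sites per window for the 10 genes, 4 for the further genes and 3 for all protein-coding genes, in windows of median length 123, 124 and 117 kb. Per 100 kb of window the medians were 2.48, 2.66 and 1.84. The count ranged from 1 site at Dll1 to 6 each at Notch1 and Notch4. Most of these sites lay closest to neighbouring genes, and 23 of 36 were nearest to the start of 1 of 21 other genes. The sites lay within 1500 bp of some transcription start in 22 of 36 cases (61.1%), beside 53.9% of all sites. The last peak inside the windows, 49595 bp beyond Notch2, had a −log10 q of 3.37 in the library labelled +DOX, and the first outside, 54275 bp from Dll1, had 11.5 in the same library.

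**Figure D1:**
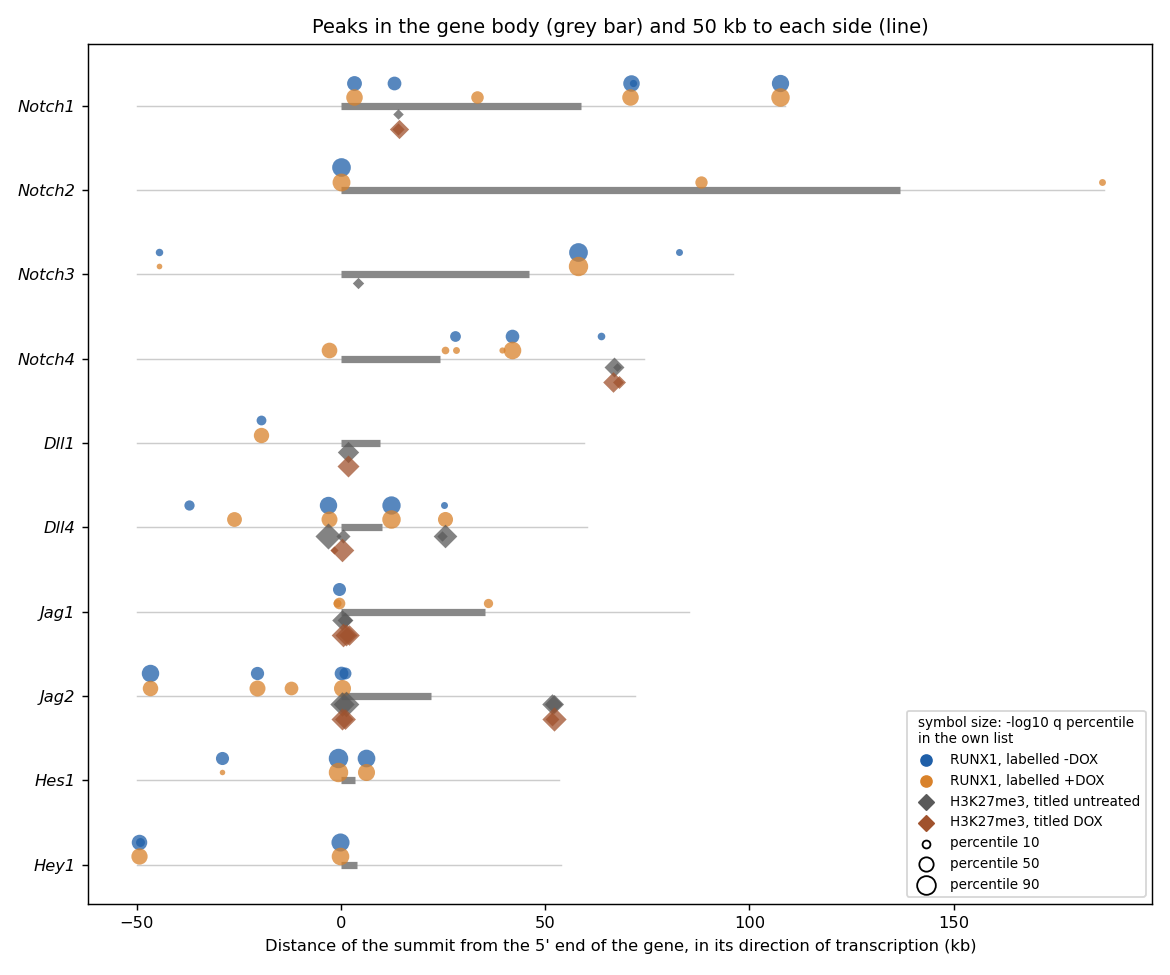
Peaks of the 4 lists around the 10 genes, plotted by distance of the summit from the gene's 5′ end in kb, along the direction of transcription. Circles are RUNX1 and diamonds H3K27me3 peaks, and larger symbols have a higher percentile of −log10 q in their own list. RUNX1 peaks of both lists sit at the start of Notch2, Jag1, Jag2, Hes1 and Hey1, and H3K27me3 peaks of both lists near the start of Dll1, Dll4, Jag1 and Jag2.

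Strength is given as the enrichment (fold) over background near the peak, and as the −log10 of the q-value. Since libraries of unknown depth are not comparable in these units, each −log10 q is also given as a percentile, its rank within the library's own list from 0 (weakest) to 100.

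The receptors differed at their starts. Notch2 was the 1 receptor of 4 with RUNX1 peaks of both lists within 1500 bp of a start, a state shared by 40.2% of all protein-coding genes. Notch2 (chr3:98013527-98150361, plus strand) was met by a summit 10 bp inside its first, non-coding exon in the library labelled -DOX, with a fold of 9.03 and a −log10 q of 29.0 (percentile 90.1). In the library labelled +DOX the summit lay 81 bp upstream, with a fold of 7.34 and a −log10 q of 19.7 (percentile 81.7). Within its intron, a further peak stood 88156 bp from the start in the library labelled +DOX alone, at percentile 35.0. Its nearest start was the non-coding Gm42820. No H3K27me3 peak of either list lay in the Notch2 window.

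Notch1, the receptor required for the first blood stem cells of the embryo, spans chr2:26457903-26516663 on the minus strand. Its RUNX1 site in both lists was intronic, 3204 bp from the 5′ end, the window printed with TGTGGTT. The −log10 q there was 8.96 in the library labelled -DOX (fold 5.71, percentile 54.1) and 13.5 in the library labelled +DOX (fold 6.76, percentile 69.2). A second site, in a non-coding exon 172 bp from the start of a shorter Notch1 transcript, appeared in the library labelled -DOX alone, with a −log10 q of 7.59 (percentile 45.6). Another, 33327 bp into the gene, appeared in the library labelled +DOX alone, with a −log10 q of 6.58 (percentile 36.6), and its window held an ETS and a C/EBP consensus. H3K27me3 peaks of both lists lay about 14 kb into the gene near the same internal start, and they were weak in the list titled untreated (percentile 8.18) and mid-range in that titled DOX (percentile 44.5). The other 3 sites of the window were at the starts of 0610009E02Rik, Sec16a and Inpp5e.

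Notch3 and Notch4, receptors known from vascular smooth muscle and from endothelium respectively, had no peak of any list within 1500 bp of a start. Notch3 (chr17:32120820-32166852, minus strand) had no RUNX1 site of its own. The site of highest −log10 q in its window lay downstream of the gene, 58046 bp from its 5′ end, with a −log10 q of 30.1 in the library labelled -DOX (fold 8.83, percentile 90.7) and 60.2 in the library labelled +DOX (fold 12.8, percentile 97.3). That fold was the highest of any RUNX1 peak in the 10 windows. The nearest start to it was the pseudogene Pdxk-ps at 1456 bp, and the nearest protein-coding start was one of Notch3 at 24959 bp. A weak H3K27me3 peak stood in a Notch3 intron in the list titled untreated only, at percentile 10.8. Notch4 (chr17:34564268-34588503, plus strand) had 1 site of its own, 2883 bp upstream, called in the library labelled +DOX alone with a fold of 6.11 and a −log10 q of 10.9 (percentile 61.1). Its other 5 sites were at the starts of Gpsm3, Pbx2, Rnf5, Agpat1 and Ppt2, and the H3K27me3 peaks of its window lay at Prrt1.

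Dll1, Dll4, Jag1 and Jag2 each had peaks of both H3K27me3 lists within 1500 bp of a start, 4 of 4 ligands. The call of Dll4 rested on a −log10 q of 4.11 in the list titled untreated and was lost at a limit of 5, as was that of Notch1, while Dll1, Jag1 and Jag2 kept theirs. At a limit of 10, 0 genes kept it. The shares of all protein-coding genes at these limits are not given here, so the counts have no background beside them. In the lists as deposited, the 4 ligands and Notch1 made 5 of the 10 genes. The same held for 9.4% of all protein-coding genes and for 11 of the 47 further pathway genes. Counting only the 5′ end of each gene left Dll4, Jag1 and Jag2, 3 of 10 beside 7.93% of all, since the peaks of Dll1 and Notch1 were near internal starts. Over the whole windows, H3K27me3 peaks of both lists were found for 6 of 10 genes, beside 28.5% of all.

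Dll1, a ligand with a main role in somite and neural patterning, spans chr17:15367354-15376872 on the minus strand. The list titled untreated had an H3K27me3 peak 1709 bp into it with a −log10 q of 7.27 (percentile 56.6), and the list titled DOX one at 1660 bp with 6.30 (percentile 60.3). The only RUNX1 site of its window was at the start of Fam120b, 19436 bp upstream.

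Dll4, the ligand of arterial endothelium, spans chr2:119325784-119335962 on the plus strand. H3K27me3 lay 447 bp into the gene in the list titled untreated (−log10 q 4.11, percentile 20.3) and 384 bp into it in that titled DOX (7.82, percentile 70.4). A stronger H3K27me3 peak was found 3206 bp upstream in the list titled untreated (15.8, percentile 87.6). RUNX1 was called in both lists near that upstream peak, 3133 bp from the gene, with a −log10 q of 16.4 in the library labelled -DOX (percentile 77.0) and 11.7 in the library labelled +DOX (percentile 63.9). This site lies in an intron of the non-coding Gm14207, whose start was nearer than that of Dll4. The 1 RUNX1 site with Dll4 as its nearest start was downstream, 12209 bp from the 5′ end, and its −log10 q was 23.8 (percentile 86.3) and 26.0 (percentile 87.9) in the libraries labelled -DOX and +DOX. The remaining sites were nearest to Vps18 and Chac1.

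Jag1 and Jag2 were the only 2 of the 10 genes with RUNX1 of both lists and H3K27me3 of both lists at a start. The same held for 2.67% of all protein-coding genes and for 0 of the 47 further pathway genes. Jag1 (chr2:137081456-137116644, minus strand), a ligand needed for vascular development, had its RUNX1 site 480 bp upstream, with a −log10 q of 6.85 in the library labelled -DOX (percentile 40.0). The library labelled +DOX had a pair of weaker summits there, with 5.87 (percentile 30.6) and 3.92 (percentile 10.9). H3K27me3 lay on the other side of the start, with the strongest summits 374 bp into the gene in the list titled untreated (6.73, percentile 51.7) and 461 bp into it in that titled DOX (7.88, percentile 71.0). The RUNX1 site itself was under no H3K27me3 peak. A weak RUNX1 site just downstream of the gene came from the library labelled +DOX alone (4.49, percentile 16.8).

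Jag2 (chr12:112907819-112929776, minus strand), the other Jagged ligand, had RUNX1 and H3K27me3 peaks that partly shared the same DNA. The RUNX1 summit lay 59 bp upstream of the start in the library labelled -DOX, with a −log10 q of 7.49 (percentile 45.0), and 230 bp inside it in the library labelled +DOX, with 15.2 (percentile 73.5). A second summit, 1108 bp into the gene, came from the library labelled -DOX alone (5.90, percentile 32.3). Both sites overlapped H3K27me3 peaks of both lists. The start summit of the library labelled +DOX and the second summit lay inside such peaks. The start peak of the library labelled -DOX touched none. The strongest H3K27me3 peaks at the 2 sites had a −log10 q of 13.8 in the list titled untreated (percentile 84.6) and 6.36 in that titled DOX (percentile 60.7). Since the protocol given with the H3K27me3 libraries names the RUNX1 antibody, whether such peaks mark 2 signals or 1 was not tested. In all, H3K27me3 peaks overlapped 4 of the 36 RUNX1 sites, taken as summits widened by 200 bp, in the list titled untreated and 2 in that titled DOX. Such an overlap need not hold a summit. At the sites upstream of Dll4 and next to Chac1, no RUNX1 summit lay inside an H3K27me3 peak. The same share over all RUNX1 sites is not given here.

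Both target genes, Hes1 and Hey1, had RUNX1 of both lists at a start, 2 of 2, without H3K27me3. Hes1 (chr16:30064384-30067796, plus strand) encodes a transcriptional repressor that Notch induces in most tissues. Its site 666 bp upstream had the highest −log10 q of the 36, 78.6 in the library labelled -DOX (fold 10.3, percentile 98.4, rank 290 of 18389) and 69.4 in the library labelled +DOX (fold 10.1, percentile 98.1, rank 425 of 21831). A second Hes1 site lay downstream, 6097 bp from the 5′ end, with 18.3 (percentile 80.1) and 15.4 (percentile 73.9). Its last site, 29119 bp upstream in an intron of the non-coding 9030404E10Rik, was uneven, at percentile 40.7 in the list labelled -DOX but at 1.17 in that labelled +DOX. Hey1 (chr3:8663359-8667256, minus strand), a related repressor of arterial endothelium, had its site 186 bp upstream of the start. It reached a −log10 q of 21.3 in the library labelled -DOX (fold 7.82, percentile 83.9) and 18.1 in the library labelled +DOX (fold 7.44, percentile 79.3). The other site of the Hey1 window, 49399 bp upstream, was nearest to C230057A21Rik. Neither the Hes1 nor the Hey1 window held an H3K27me3 peak of either list.

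**Figure D2:**
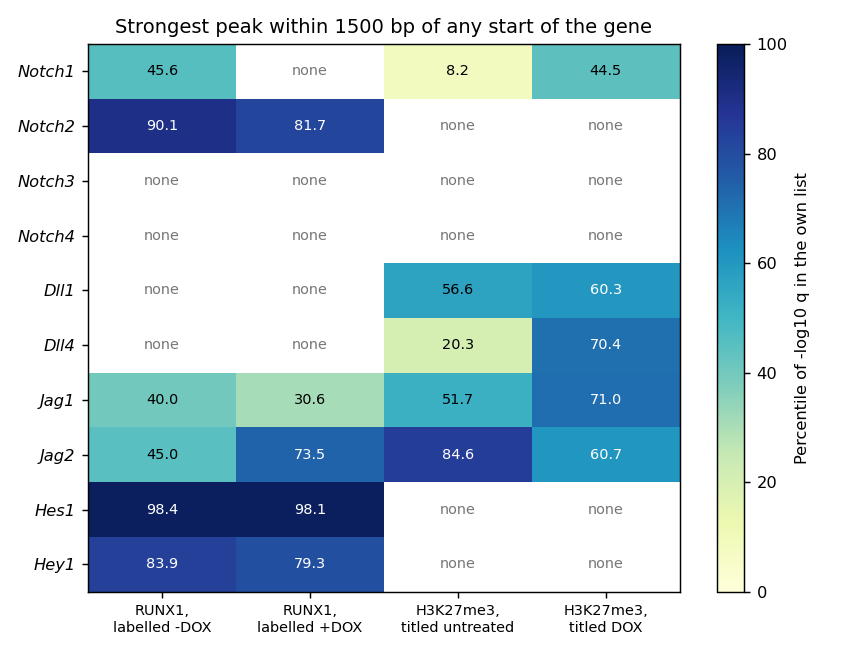
Percentile of −log10 q, within its own list, of the strongest peak within 1500 bp of any annotated start of each gene; "none" means that no peak was called there. The starts of Notch2, Hes1 and Hey1 have RUNX1 between percentiles 79.3 and 98.4 and no H3K27me3, Dll1 and Dll4 have H3K27me3 alone, and Jag1 and Jag2 have both.

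Thus 5 of the 10 genes, Notch2, Jag1, Jag2, Hes1 and Hey1, had RUNX1 of both lists at a start, beside the 40.2% of all protein-coding genes. The same 5 had it at the 5′ end of the gene, beside 36.8% of all. At a −log10 q of at least 10 in both lists, these were Notch2, Hes1 and Hey1, 3 genes. The share of all protein-coding genes at that limit is not given here.

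Between the 2 RUNX1 libraries the 36 sites divided much as all sites did. In both lists were 21 sites, 58.3% (95% Wilson interval 42.2 to 72.9), beside 56.8% of all sites. The library labelled +DOX alone gave 9, or 25% (13.8 to 41.1), beside 28.4% of all. The library labelled -DOX alone gave 6, or 16.7% (7.87 to 31.9), beside 14.8% of all. The intervals cover counting error only. With the lists trimmed to the same number of peaks the order of the last 2 shares turned, to 18.2% and 27.3%. With the libraries exchanged, the shares 25% and 16.7% change places.

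**Figure D3:**
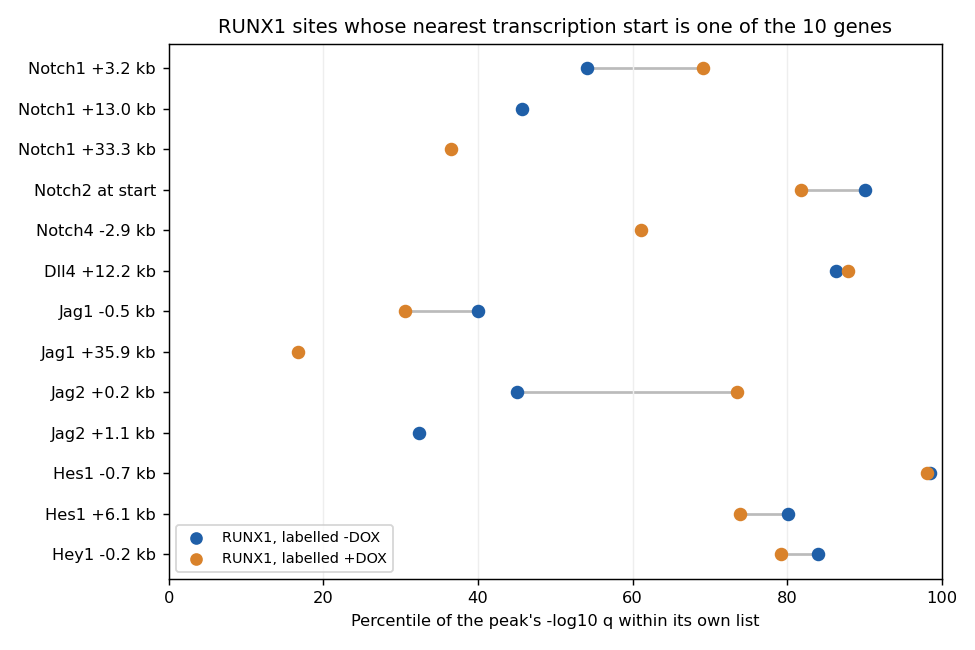
Percentile of −log10 q within its own list for the 13 RUNX1 sites nearest to the start of one of the 10 genes, named by distance from the gene's 5′ end. Blue points are the library labelled -DOX and orange points that labelled +DOX, and where a list has several summits in a site the strongest is shown. Grey lines join the 8 sites in both lists, with Hes1 at the top of the scale in both, and the 5 sites with a single point were called in 1 list.

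Of the 13 sites nearest to the genes themselves, 8 were in both lists, 3 only in the library labelled +DOX (Notch1, Notch4 and Jag1) and 2 only in the library labelled -DOX (Notch1 and Jag2). The sites called in a single list ranged from percentile 16.8 to 61.1, and the stronger peak of the sites in both lists from 40.0 to 98.4. These ranges are not a like comparison, because a stronger peak can be picked only where both lists have one. Of the 8 in both lists, the percentile was higher in the library labelled -DOX at 5 (Notch2, Jag1, both Hes1 sites and Hey1) and higher in the library labelled +DOX at 3 (Notch1, Dll4 and Jag2). Over all 21 sites in both lists the counts were 10 and 11, and over all such sites of the series 58.0% were higher in the library labelled +DOX. The median percentile of the stronger peak was 69.2 at the 13 sites, 45.3 at the 23 sites nearest to other genes and 51.1 over all sites.

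The rest of the pathway was taken as a list of 47 genes, with the role of each set in that list and not tested here. RUNX1 of both lists was at a start of 25 of them, of 1 list at 7, and of neither at 15. By role it was found at 6 of 8 genes of the nuclear complex, 6 of 9 proteases, 3 of 5 glycosyltransferases, 6 of 11 genes of endocytosis and turnover, 4 of 11 targets and 0 of 3 ligands, beside 40.2% of all protein-coding genes. Single sites were ranked only where 1 of the 47 genes had the nearest start. Of the 5 such sites of highest −log10 q, 3 are given. They were at Adam17, a protease that sheds Notch and other membrane proteins (27 bp upstream, −log10 q 45.6 and 43.9 in the libraries labelled -DOX and +DOX), at Spen, a corepressor that binds RBPJ (313 bp upstream, 32.0 and 30.3), and at Mfng, which adds sugars to the receptors (20311 bp from its 5′ end, 18.8 and 23.9). None of these reached the 78.6 of the Hes1 site. Kdm5a, a gene of the nuclear complex, was outside that ranking. Its RUNX1 peak within 1500 bp of a start had a −log10 q of 73.8 in the library labelled -DOX (percentile 98.2). In the library labelled +DOX the value was 66.8 (percentile 97.8). Of the sites called in a single list, the highest −log10 q was 11.7 at a site 10586 bp from the 5′ end of Lfng (library labelled +DOX), then 9.92 at 33538 bp upstream of Fbxw7 (library labelled -DOX). The next, 8.08 in the library labelled +DOX, had Gata3 as its nearest start but lay 88317 bp from the 5′ end, beyond the 50 kb flank, and Gata3 was the 1 gene of the 47 with no RUNX1 site in its window.

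H3K27me3 of both lists was at a start of 11 of the 47 genes, beside 9.4% of all protein-coding genes. These were Dll3, Dlk1 and Dlk2, listed as ligands (3 of 3), and Hes2, Hes3, Hes5 and Heyl, listed as targets (4 of 11). The others were the ubiquitin ligase genes Neurl1a, Neurl1b and Dtx1 of the endocytosis and turnover group (3 of 11), and the glycosyltransferase Lfng (1 of 5). The call of Dll3 was lost at a −log10 q limit of 5, with at most 4.16 in the list titled untreated and 3.79 in that titled DOX. No gene of the nuclear complex (0 of 8) and no protease (0 of 9) had H3K27me3 of both lists at a start. At a share of 9.4%, groups of this size can hold none. The pattern of Notch2, Hes1 and Hey1, RUNX1 of both lists without H3K27me3, was shared by 24 of the 47, beside 36.4% of all protein-coding genes, in alphabetical order beginning with Adam10, Adam17, Dtx2, Fbxw7 and Furin. The pattern of Dll1 and Dll4 was shared by 9, among them Dlk1, Dlk2, Dll3, Dtx1 and Hes2, beside 5.12% of all. That of Notch1 was shared by 2, Neurl1a and Neurl1b, beside 0.506% of all. The empty starts of Notch3 and Notch4 were matched by 5 of the 47, Dtx3l, Hes7, Maml2, Mfng and Psenen, beside 42.7% of all.

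**Figure D4:**
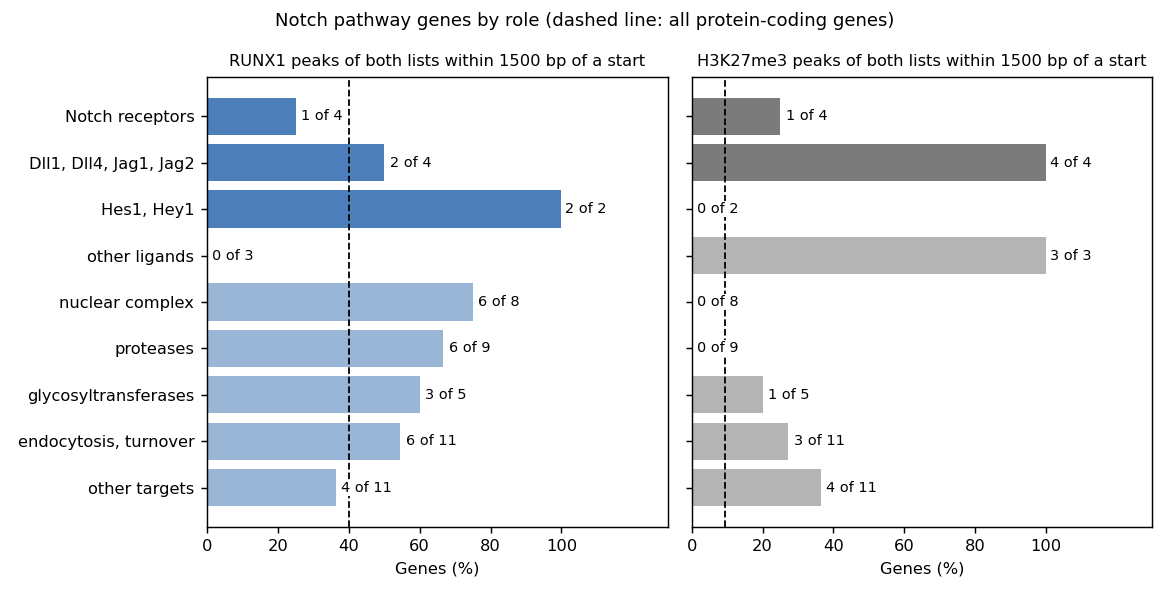
Percent of genes in each role with peaks of both RUNX1 lists (left) or both H3K27me3 lists (right) within 1500 bp of a start, with the count beside each bar; dark bars are the 10 genes, light bars the 47 further genes, and dashed lines mark all protein-coding genes (40.2% and 9.4%). All 4 ligands among the 10 genes and the 3 further genes listed as ligands had H3K27me3, while the nuclear complex and the proteases had none. Dll4 and Dll3 had it only up to a −log10 q limit below 5.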

How the data were processed

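Reads went through Trimmomatic, Bowtie2 alignment to mm10 and duplicate removal by Picard before the authors ran MACS2 on each library, with q-values below 0.05 kept. The submitters' processing notes give Bowtie2 2.2.9 and MACS2 2.1.1, and the paper's methods give another Bowtie2 version. An input control and the processing of the H3K27me3 libraries are not given in the sources used here. The values deposited by the authors per peak are a ratio (fold over local background) and −log10 p-value and q-value. Deposited lists may precede filters against blacklisted regions.

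Here, summits were assigned to GENCODE vM21 genes, merged, ranked within each list and searched for motifs in Python 3.11.15 with numpy 2.4.6 and scipy 1.17.1, and plotted with matplotlib 3.10.9. Sequences came from the RefSeq mm10 genome. The 9 available RefSeq promoter entries of the 10 genes were read back identically. On simulated data, 100% of 2000 genes and 100% of 1000 planted motifs were recovered. A start is that of any annotated transcript of the gene. The 146 to 300 peaks per list outside the autosomes, X and Y were left out.

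The 10 genes and the lists were chosen with earlier results of these data known. All 10 were named. Of the 47 further genes, named were those with H3K27me3 of both lists at a start, those nearest to the 5 strongest sites and the 3 strongest single-list sites, and up to 5 per start pattern in alphabetical order. Kdm5a was added for its RUNX1 peaks at a start. Other genes are named where theirs was the nearest start. A few genes and sequences that these rules select are not reported here. With 1 library per condition no test was made. Alternatives changed the window, the q-value limit, the list length, merging, the starts used, the promoter distance, the motif window and consensus, the H3K27me3 overlap and the RUNX1 labels.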

Additional observations from a re-analysis of the deposited data

How the results depend on the processing

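Of 54 values recomputed under 15 alternatives, 42 stayed within 1.5 times the reported count or, for a share, within its Wilson interval, and 12 did not. That interval is wide: the share called only in the library labelled -DOX, 16.7%, reached 28.6% in the gene bodies alone and 27.3% with lists of equal length. The 36 RUNX1 sites became 7 in the gene bodies alone, 17 with a flank of 10 kb, 62 with a flank of 100 kb and 17 at a −log10 q of at least 10. The 13 sites nearest to one of the genes became 6 in the gene bodies alone and 8 at a −log10 q of at least 10, where the share called only in the library labelled -DOX was 0% and the genes with RUNX1 of both lists at a start were 3. The 5 genes with H3K27me3 of both lists at a start became 3 at a −log10 q of at least 5 (without Notch1 and Dll4), 0 at one of at least 10, and 3 when only the 5′ end of the gene counted, an alternative chosen after seeing the data. The 6 sites with a RUNX consensus became 12 with the shorter form. Smaller windows and stricter limits hold fewer peaks by construction. The shares of all genes and sites at the stricter limits are not given here. Some of the 42 values could not change and show no stability. Using protein-coding starts alone leaves the counts of genes with a peak at a start as they are. Calling sites shared by overlapping peaks leaves the numbers of sites as they are. Exchanging the RUNX1 labels only swaps 2 shares. With protein-coding starts alone, 17 sites were nearest to one of the genes.

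No paired analysis was possible because each condition has 1 library and no test was made, and no replicate was there to leave out. The depth of the lists is unknown, and a peak missing from 1 list was not called there, which does not show that nothing was bound.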
